A study of Mus musculus with 8 samples.

Results

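Rab GTPases are the largest family of small GTPases that steer membrane traffic, and the genes described here are the members of that family expressed in epithelial cells of the mouse small intestine. A gene was taken as a member when its mouse symbol was Rab followed directly by a number and an optional letter, which keeps the GTPases and leaves out the genes of their partners, and when its value was at least 10 in at least 4 libraries. Of the 59 such Rab genes in the files, 46 passed this filter and 13 did not, out of 12906 passing genes among 23318 in all. The 13 left out were Rab3b, Rab7b, Rab9b, Rab26, Rab33a, Rab34, Rab36, Rab38, Rab39, Rab39b, Rab40b, Rab42 and Rab44, and the highest value that any of them reached in any library was 14.7.

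The RNA came from sorted cells of mouse small intestine epithelium, and the sources used here give no strain, age or genotype. Cells that carried the leukocyte antigen CD45 or bound Ulex europaeus agglutinin, a lectin that recognises fucose and is known to bind goblet and Paneth cells, had been removed from both fractions. The remaining cells were split by surface CD24 into CD24Mid, also called CD24low by the submitters, and CD24Neg. Each fraction has 4 libraries, which the series design names biological replicates, with title numbers 1, 3, 5 and 7 for CD24Mid and 2, 4, 6 and 8 for CD24Neg. The comparison of the fractions addresses gene activity during intestinal differentiation, as the series title puts it. Values by library are given in the order of these numbers, and differences are CD24Neg minus CD24Mid. Values are in the authors' scaled units, and each fold change comes from log2(value + 0.5).

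A Rab protein switches between a GDP-bound form, held in the cytosol by a GDP dissociation inhibitor, and a GTP-bound form on a membrane, where it recruits motors, tethers and other effectors. Guanine nucleotide exchange factors turn it on and GTPase-activating proteins turn it off, and each organelle of the secretory and endocytic routes carries its own set of Rabs. In the enterocyte, the absorptive cell of the villus, Rab11a and Rab8a together with the motor myosin Vb carry digestive enzymes and transporters to the brush border, and loss of this route in mice and people leaves the cells without an ordered brush border. Goblet, Paneth and enteroendocrine cells store their products in granules and use the Rab3 and Rab27 proteins for regulated release.

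The fractions matched their sort and differed strongly in cell type. Cd24a, the gene of the sorting antigen, was lower in CD24Neg (log2 fold change -2.79, limma adjusted p = 2.34e-06, n = 4 libraries in each fraction as throughout, errors as SD). Over the libraries of a fraction, the summed value of 7 enterocyte markers ranged over 18166–26673 (CD24Mid) and 358589–668646 (CD24Neg), and that of 5 stem cell markers over 50868–68341 (CD24Mid) and 1667–5939 (CD24Neg). Goblet markers were also higher in CD24Neg, with sums of 47556–74600.4 (CD24Mid) and 182069–504558 (CD24Neg) despite the lectin depletion of both fractions, and the sums of 8 enteroendocrine markers were 3608–8012 (CD24Mid) and 1149.7–1548 (CD24Neg). T cell markers summed to 89.2–246 (CD24Mid) and 424–7082 (CD24Neg) despite the CD45 depletion, plasma and B cell markers to 2882–7467 (CD24Mid) and 174–405 (CD24Neg), Paneth markers to 1422–3318 (CD24Mid) and 1178–4131 (CD24Neg) and tuft markers to 53.8–121 (CD24Mid) and 123–309 (CD24Neg). The tuft markers did not move together. Of 6 genes 4 passed the filter, with Ltc4s called higher (log2 fold change 4.15), Pou2f3 called lower (-3.58) and 2 not called. Stromal markers summed to 135–183 (CD24Mid) and 34.0–159 (CD24Neg). Of these 5 genes 2 passed the filter, with Vim called lower (log2 fold change -1.44) and Pecam1 not called (0.13). Col1a2, which did not pass the filter, was at 0 in all 4 CD24Mid libraries. Estimated depth was 17.4 to 19.6 M reads (CD24Mid) and 12.4 to 20.7 M (CD24Neg), of which mitochondrially encoded genes took 8.03 to 9.10% and 28.3 to 37.4%. A value of 10 stood for about 14.3 to 17.1 reads of a CD24Mid library and 5.59 to 9.35 of a CD24Neg library.

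Most Rab genes were higher in CD24Neg, the fraction rich in enterocyte transcripts, by modest factors. Of the 46 members, 30 rose and 4 fell (limma adjusted p under 0.05 over all genes tested), and 12 did not pass. When each library was scaled to its total after dropping the 20 most abundant genes (below: with totals), 17 were higher and 11 lower. Across all 12906 genes, 34.0% were higher and 34.3% were lower, 68.3% in either direction, so 65.2% of the Rab genes higher and 8.70% lower stand beside a background in which both directions were about equally common. The median difference of the 46 members was 0.45 on the log2 scale, against -0.020 over all genes tested. Changes above 2-fold were fewer. The list had 10 members more than 2-fold higher, 21.7% against 18.1% of all genes, and 2 members more than 2-fold lower, 4.35% against 19.9%. In a bulk sample, fewer cells of a type and less RNA per cell cannot be told apart, which holds for every difference below.

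The values of single libraries gave a like count. In 29 members all 4 CD24Neg libraries lay above all 4 CD24Mid libraries and in 3 they all lay below, against 31.8% and 32.1% of all genes and 63.8% in either direction, while in 14 the fractions overlapped. Rab5b, Rab11b and Rab23 were called although their libraries overlapped, and Rab14 was not called although they did not.

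How the libraries are scaled moved these counts. The main processing centres each library on its median ratio to the average library, which makes the typical gene equal between libraries. Scaling to totals shifted the median of all genes to -0.44 and that of the Rab genes to 0.023. The Rab median lay 0.47 above that of all genes under either scaling. This had to be so, because each scaling divides a library by a constant and shifts all genes nearly alike. Under this scaling 22.0% of all genes were called higher and 50.3% lower. Of the 30 members that rose, 17 were called higher under both scalings, 13 were not called with totals, and 6 of those 13 (Rab2a, Rab5b, Rab7, Rab11b, Rab21 and Rab35) then had a difference below 0. All 4 members that fell were called lower under both. With totals 7 more (Rab10, Rab12, Rab13, Rab14, Rab25, Rab28 and Rab29) were called lower, none of which was called by the median ratio. Quantile normalization gave 24 members higher and 5 lower, beside 31.4% and 35.6% of all genes. It ended the calls of Rab2a, Rab5b, Rab7, Rab11b, Rab18, Rab21, Rab23, Rab35 and Rab43. It added Rab2b and Rab8b as higher and Rab10 and Rab25 as lower.

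**Figure D1:**
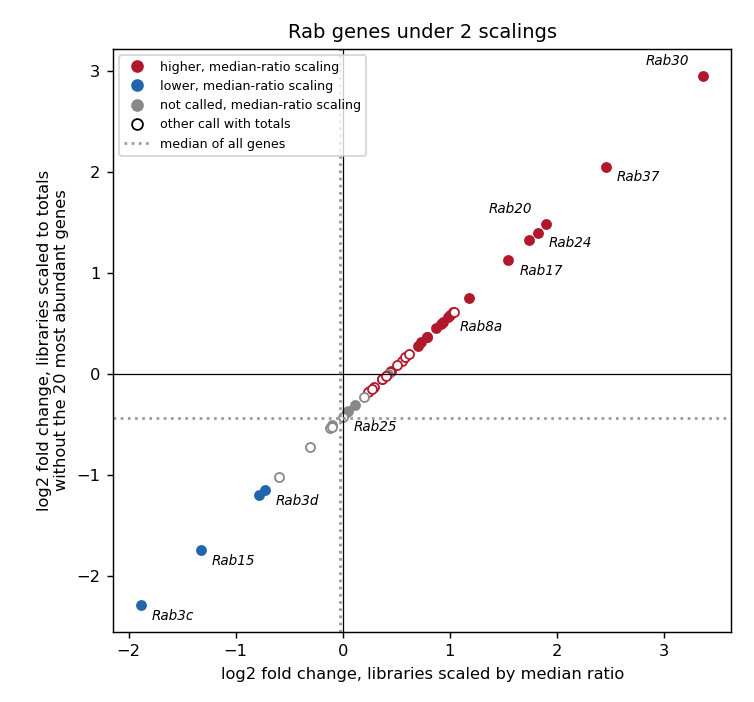
Log2 fold change (CD24Neg minus CD24Mid) of each of the 46 Rab genes with libraries scaled by median ratio (x axis) and to totals without the 20 most abundant genes (y axis), with colour giving the call under the first and open points a different call under the second. Members shift down together, so 30 are called higher on the x axis and 17 on the y axis, and dotted lines mark the median of all genes, which shifts likewise.

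Members that kept their call under all 20 alternatives to the main processing were 12 that rose (Rab1a, Rab4a, Rab4b, Rab5c, Rab8a, Rab17, Rab19, Rab20, Rab24, Rab30, Rab31 and Rab37) and 2 that fell (Rab3c and Rab15). All other members that rose or fell did not pass the test against a fold change of 1.5, Rab11a among them (adjusted p = 0.255), which passed under the other 19. The members are described below by route, and the share called in each route stands beside 34.0% of all genes higher and 34.3% lower.

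**Figure D2:**
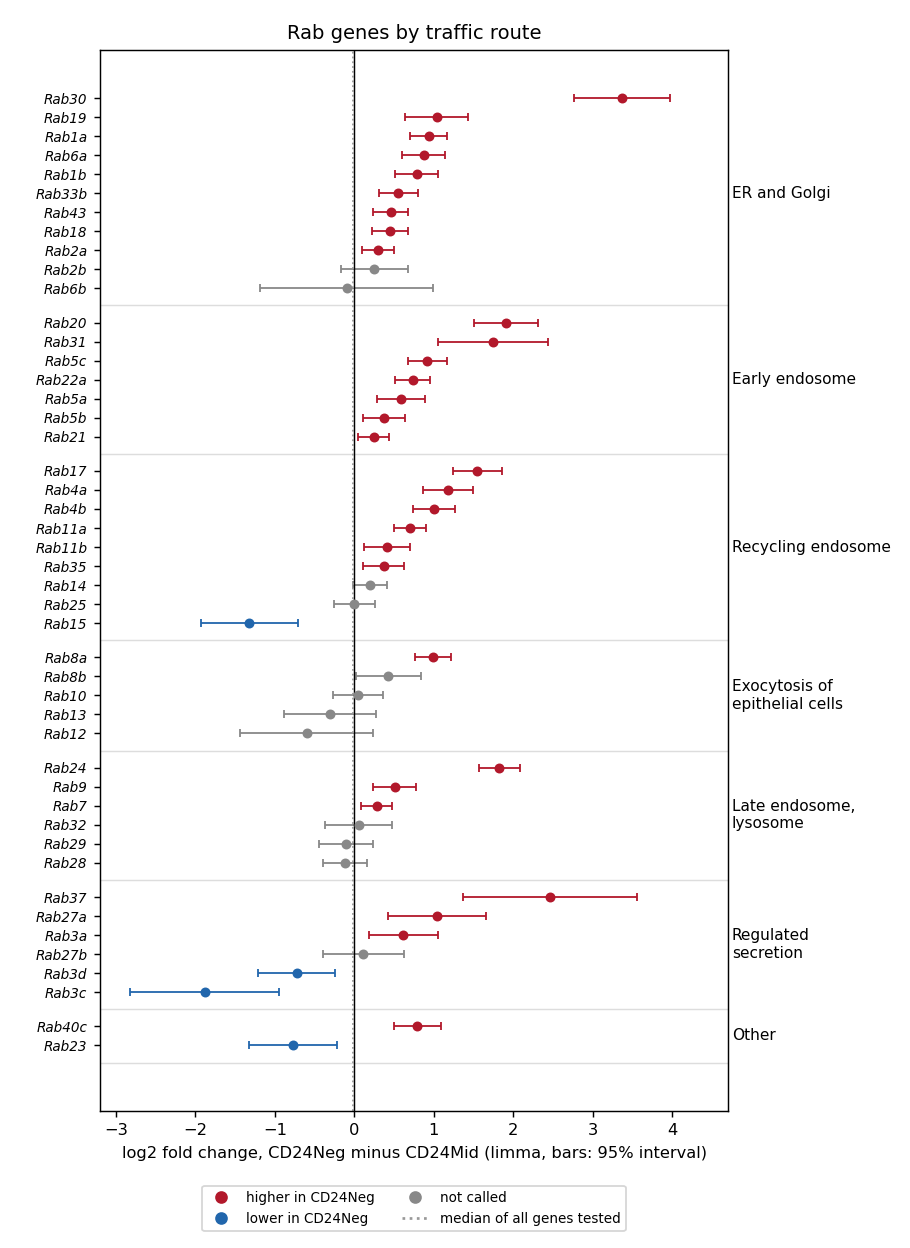
Log2 fold change, CD24Neg minus CD24Mid, of the 46 Rab genes grouped by traffic route, with 95% intervals from limma over 4 libraries per fraction and colour for the call. All 7 early endosome members are higher in CD24Neg, and Rab15, Rab3c, Rab3d and Rab23 are lower. Scaling to totals would shift all points downward together and turn the sign of 13 members. Of these, Rab2a, Rab5b, Rab7, Rab11b, Rab21 and Rab35 are called higher here and the others are not called.

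Promoter sequences are shown for those called members with exactly 1 start site in RefSeq, GRCm38.p6, taking the 4 largest rises and the falls with such a start (2), because these are the members with the largest differences for which 1 window can be given. Rab30, Rab37, Rab15 and Rab23, whose differences exceed some or all of these in their direction, are not among them. Each is the 250 bases before the annotated start, 5′ to 3′ on the minus strand of the genome, on which all 6 genes lie. Capitals mark matches, on either strand, to 9 short motifs. These are TATAAA for the TATA box, CCAAT for the box of that name, GGGCGG for the GC box, CACGTG for the E-box, GTTAAT for HNF1, CAAAGTCCA for HNF4, AGATAA for GATA factors, TTTATG for CDX factors and CCGGAAGT for ETS factors.
Rab20: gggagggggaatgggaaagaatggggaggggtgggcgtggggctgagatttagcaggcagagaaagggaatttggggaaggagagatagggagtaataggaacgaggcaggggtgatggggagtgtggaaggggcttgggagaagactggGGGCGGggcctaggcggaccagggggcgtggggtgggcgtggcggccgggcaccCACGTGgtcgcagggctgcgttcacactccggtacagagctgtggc
Rab24: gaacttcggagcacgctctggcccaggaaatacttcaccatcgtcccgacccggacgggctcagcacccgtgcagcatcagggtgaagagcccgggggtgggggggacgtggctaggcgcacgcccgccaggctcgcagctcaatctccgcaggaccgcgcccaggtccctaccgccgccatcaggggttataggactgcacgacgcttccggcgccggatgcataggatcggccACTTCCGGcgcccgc
Rab31: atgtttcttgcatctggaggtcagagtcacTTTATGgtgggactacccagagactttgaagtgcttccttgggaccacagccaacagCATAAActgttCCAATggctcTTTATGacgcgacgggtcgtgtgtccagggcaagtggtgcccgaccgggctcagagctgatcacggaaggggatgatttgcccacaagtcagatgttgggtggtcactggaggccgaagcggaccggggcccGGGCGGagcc
Rab17: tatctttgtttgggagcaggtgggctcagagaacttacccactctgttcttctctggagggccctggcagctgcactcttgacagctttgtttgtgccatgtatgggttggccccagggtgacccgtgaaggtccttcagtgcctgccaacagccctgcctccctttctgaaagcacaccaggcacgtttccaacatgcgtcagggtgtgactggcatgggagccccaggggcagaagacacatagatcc
Rab3c: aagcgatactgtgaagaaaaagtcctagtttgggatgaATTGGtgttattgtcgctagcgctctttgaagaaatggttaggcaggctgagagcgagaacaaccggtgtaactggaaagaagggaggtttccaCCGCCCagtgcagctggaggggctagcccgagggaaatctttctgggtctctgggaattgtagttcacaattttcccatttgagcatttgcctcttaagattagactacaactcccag
Rab3d: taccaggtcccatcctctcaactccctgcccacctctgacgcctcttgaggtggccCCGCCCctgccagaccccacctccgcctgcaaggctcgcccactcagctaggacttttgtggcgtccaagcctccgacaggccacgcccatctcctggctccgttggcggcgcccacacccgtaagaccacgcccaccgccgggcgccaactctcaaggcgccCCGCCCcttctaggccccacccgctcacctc
The windows are chr8:11478641-11478890, chr13:55321981-55322230, chr17:65772753-65773002, chr1:90967668-90967917, chr13:110280207-110280456 and chr9:21918184-21918433 in this order. Rab20 has a GC box and an E-box, Rab24 an ETS site in the reverse orientation, and Rab31 has 3 CDX sites, a CCAAT box and a GC box. No motif of the set matched in the Rab17 window, Rab3c has a CCAAT box and a GC box in reverse, and Rab3d has 2 reversed GC boxes. A match is a string of letters and not a bound site. RefSeq gave a start for 40 of the 46 members, with 51 windows among 32851 in the table. The GC box was found in 66.7% against 32.7% of all windows, the CCAAT box in 41.2% against 33.8%, the E-box in 9.8% against 6.02% and the TATA box in 1.96% against 12.4%, each given as the share of Rab windows first. The CDX site was found in 11.8% against 10.8%, the ETS site in 3.92% against 2.88%, the HNF1 site in 1.96% against 6.43% and the GATA site in 1.96% against 9.99%, and the HNF4 site in 0 of 51 against 0.384%. Windows of 1 gene can overlap, so they are not independent. The Rab windows belong to genes that passed the filter, while the 32851 windows were not limited to such genes. The shares therefore compare sets that were not matched for expression.

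Rabs of the endoplasmic reticulum and Golgi had 11 members, of which 9 rose (81.8%), 0 fell and 2 did not pass, with a median of 0.55. Rab1a and Rab1b, which tether vesicles on the way from the endoplasmic reticulum to the Golgi, and Rab6a, which works in traffic within and out of the Golgi, are described first. Per kb of transcript, the mean levels in CD24Mid and CD24Neg were 984 and 1885 for Rab1a, 770.5 and 946 for Rab2a, 742 and 1277 for Rab1b and 412 and 756 for Rab6a. Rab1a had values of 2693, 2616, 2875 and 2938 in the CD24Mid libraries and 4761, 5404, 6102 and 5047 in the CD24Neg libraries. Every CD24Neg library stood well above every CD24Mid library, with means of 2781 ± 151 (CD24Mid) and 5328 ± 579 (CD24Neg), a 1.91-fold difference (log2 fold change 0.93 with SE 0.11, limma adjusted p = 2.66e-05). Rab6a gave 1219, 1187, 1392 and 1497 in the CD24Mid libraries and 2132, 2384, 2889 and 2314 in the CD24Neg libraries, 1.83-fold higher (log2 fold change 0.87, adjusted p = 0.000112). Rab1b gave 1585, 1585, 1234 and 1277 in the CD24Mid libraries and 2698, 2588, 2322 and 2163 in the CD24Neg libraries, 1.72-fold higher (log2 fold change 0.79, adjusted p = 0.000229). None of the 3 genes overlapped between the fractions, and they were called with totals as well, at log2 fold changes of 0.51, 0.45 and 0.36.

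Rab30, a Golgi Rab, had the largest rise of all 46 members. Its values were 12.5, 19.2, 14.8 and 13.8 in the CD24Mid libraries and 102, 206, 202 and 149 in the CD24Neg libraries. The CD24Mid libraries were all near the lower limit of the filter, at an estimated 17.9 to 28.8 reads, and the CD24Neg libraries were far above them, with means of 15.1 ± 2.90 (CD24Mid) and 165 ± 49.5 (CD24Neg). The difference was 10.3-fold (log2 fold change 3.37 with SE 0.27, limma adjusted p = 2.87e-06, 95% interval 2.76 to 3.98), and 2.95 on the log2 scale with totals. Rab19 lay at 136–154 (CD24Mid) and 213–373 (CD24Neg) and rose 2.05-fold (log2 fold change 1.03, adjusted p = 0.000445).

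Smaller rises were found for Rab33b, a Golgi Rab that also binds the autophagy machinery (1.47-fold, log2 fold change 0.55, adjusted p = 0.00111), Rab43 (1.37-fold, adjusted p = 0.00239), and Rab18, which is found on the endoplasmic reticulum and on lipid droplets (1.36-fold, adjusted p = 0.0027). With totals these 3 differences were 0.13, 0.027 and 0.019 and were not called. Rab2a, another Rab of the early secretory route, rose 1.23-fold by the median ratio (adjusted p = 0.0139) but had a difference of -0.13 with totals. Its paralog Rab2b was far lower, at 45.8–52.7 (CD24Mid) and 48.1–66.1 (CD24Neg), and did not pass (log2 fold change 0.25, adjusted p = 0.26). Rab6b also did not pass (log2 fold change -0.099, adjusted p = 0.866), at an estimated 2.65 to 28.9 reads per library.

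The early endosome was the route in which all 7 members rose by the median ratio, with a median of 0.74. With totals Rab5a, Rab5b and Rab21 were not called, and Rab5b and Rab21 turned to -0.057 and -0.19. The 3 Rab5 genes encode the GTPases that drive fusion of early endosomes. Rab5c, the most abundant, had values of 1981, 2005, 1557 and 1799 in the CD24Mid libraries and 3567, 3619, 3567 and 3088 in the CD24Neg libraries. The fractions were well apart, at 1836 ± 207 (CD24Mid) and 3460.4 ± 249.6 (CD24Neg), a 1.89-fold difference (log2 fold change 0.92 with SE 0.11, limma adjusted p = 3.94e-05). Rab5a had 571, 648, 700.1 and 727 in the CD24Mid libraries and 804, 1008, 1219 and 974 in the CD24Neg libraries and rose 1.503-fold (log2 fold change 0.59, adjusted p = 0.00309, and 0.16 with totals). Rab5b lay at 683–828 (CD24Mid) and 771–1039 (CD24Neg), so the fractions overlapped, and its rise of 1.29-fold (adjusted p = 0.0172) was lost without CD24Neg library 4 (adjusted p = 0.0527) and without CD24Mid library 5 (adjusted p = 0.0528).

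Larger factors came from 2 members of low abundance. Rab20, a Rab of endosome and phagosome maturation whose promoter is printed above, had values of 82.0, 70.8, 50.9 and 56.3 in the CD24Mid libraries and 278, 225, 249.5 and 214 in the CD24Neg libraries. All CD24Neg libraries were far above the highest CD24Mid library, and the means of 65.0 ± 14.1 (CD24Mid) and 242 ± 28.4 (CD24Neg) differed 3.74-fold (log2 fold change 1.90 with SE 0.18, limma adjusted p = 8.51e-06). Rab31, which acts between the trans-Golgi network and endosomes, had 18.1, 17.3, 17.9 and 16.97 in the CD24Mid libraries and 38.9, 92.9, 78.6 and 45.4 in the CD24Neg libraries, a 3.35-fold difference (log2 fold change 1.74, adjusted p = 0.000579). Its CD24Mid libraries were nearly equal, while CD24Neg libraries 4 and 6 stood well above libraries 2 and 8. The values of Rab31 rest on an estimated 25.8 to 29.8 reads (CD24Mid) and 21.7 to 73.4 reads (CD24Neg) per library. Rab22a, a relative of Rab31 on early endosomes, had 595, 513, 626 and 616 in the CD24Mid libraries and 961, 912, 1078 and 959.7 in the CD24Neg libraries and rose 1.66-fold (log2 fold change 0.74, adjusted p = 9.19e-05). Rab21, known for integrin traffic, lay at 479–528 (CD24Mid) and 571–658 (CD24Neg) and rose 1.18-fold by the median ratio (adjusted p = 0.0344). That call was lost when CD24Mid library 1, 3, 5 or 7 or CD24Neg library 4 or 6 was left out, with adjusted p of 0.0571, 0.0972, 0.0573, 0.0729, 0.0646 and 0.0815.

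Recycling endosome Rabs had 9 members, of which 6 rose (66.7%), 1 fell (11.1%) and 2 did not pass, with a median of 0.41. Rab17, an epithelial Rab of apical recycling and transcytosis, changed most. It had values of 623, 510.1, 419 and 438 in the CD24Mid libraries and 1607, 1362, 1519 and 1285 in the CD24Neg libraries. The lowest CD24Neg library lay far above the highest CD24Mid library, and the means of 497 ± 92.4 (CD24Mid) and 1443 ± 146 (CD24Neg) differed 2.92-fold (log2 fold change 1.55 with SE 0.14, limma adjusted p = 5.39e-06). Rab4a and Rab4b, the Rabs of fast recycling, followed. Rab4a had 629, 576, 457 and 438 in the CD24Mid libraries and 1182, 1208, 1325 and 1006 in the CD24Neg libraries, 2.26-fold higher (log2 fold change 1.18, adjusted p = 3.78e-05). Rab4b had 360.3, 323, 268 and 270.0 in the CD24Mid libraries and 649, 580.3, 589.8 and 609.9 in the CD24Neg libraries, 2.003-fold higher (log2 fold change 1.002, adjusted p = 3.70e-05). Neither gene overlapped between the fractions.

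In the Rab11 subfamily, which marks the apical recycling endosome, Rab11a and Rab11b were called by the median ratio and Rab25 was not. Rab11a had values of 977, 1018, 977 and 903 in the CD24Mid libraries and 1679, 1604, 1631 and 1396 in the CD24Neg libraries. It was higher in every CD24Neg library, at 969 ± 48.1 (CD24Mid) and 1577 ± 125 (CD24Neg), a 1.63-fold difference (log2 fold change 0.70 with SE 0.092, limma adjusted p = 7.59e-05, and 0.27 with adjusted p = 0.0164 with totals). Rab25, the epithelial member also known as Rab11c, had 1777, 1613, 1419 and 1344 in the CD24Mid libraries and 1738, 1522, 1437 and 1439 in the CD24Neg libraries. Its fractions overlapped almost fully, at 1538 ± 195 (CD24Mid) and 1534 ± 142 (CD24Neg). The difference was 0.00015 with a 95% interval of -0.26 to 0.26 (limma adjusted p = 0.999). However, Rab25 was called lower with totals (-0.43, adjusted p = 0.00686) and with quantile normalization (-0.37, adjusted p = 0.0232). Rab11b lay at 1198–1546 (CD24Mid) and 1487–1988 (CD24Neg) and rose 1.32-fold by the median ratio (adjusted p = 0.0178), with -0.022 under totals. Its call was lost without CD24Mid library 5 (adjusted p = 0.0588) and without CD24Mid library 7 (adjusted p = 0.0585).

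Rab15, which is known to slow recycling from early endosomes, was the member of this route that fell. It had values of 449.5, 683, 551 and 563 in the CD24Mid libraries and 249, 373, 135 and 193 in the CD24Neg libraries. No CD24Neg library reached the lowest CD24Mid library, and the means of 562 ± 95.4 (CD24Mid) and 238 ± 102 (CD24Neg) differed 2.5-fold (log2 fold change -1.32 with SE 0.27, limma adjusted p = 0.00157). The sums of enteroendocrine markers, 3608–8012 (CD24Mid) and 1149.7–1548 (CD24Neg), were lower alongside it, and among the CD24Neg libraries Rab15 was in the order of the goblet sums, with library 4 the highest and library 6 the lowest. Among the CD24Mid libraries it was not, as library 1 was highest for goblet markers and lowest for Rab15. Between the fractions the goblet sums were higher in CD24Neg, opposite to Rab15. The lectin step is known to remove goblet cells, and how many remained was not measured. The part of either set of markers in the result was not tested. Rab35, a Rab of recycling to the plasma membrane, lay at 639–782 (CD24Mid) and 809–1042 (CD24Neg) and rose 1.29-fold by the median ratio (adjusted p = 0.0161), with -0.056 under totals and adjusted p = 0.0551 without CD24Mid library 5. Rab14, between the Golgi and endosomes, had 1588, 1573, 1792 and 1740.0 in the CD24Mid libraries and 1841, 1838, 2165 and 1828 in the CD24Neg libraries. Its fractions did not overlap, yet the difference of 0.20 did not pass (adjusted p = 0.0934), and with totals it was -0.23 (adjusted p = 0.0423).

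Of the 5 Rabs of exocytosis in epithelial cells, 1 rose and 4 did not pass, with a median of 0.045. That 1 was Rab8a, which is needed for delivery of apical membrane proteins in the mouse intestine. Rab8a had values of 1674, 1591, 1431 and 1427 in the CD24Mid libraries and 3107, 2967, 3332 and 2741 in the CD24Neg libraries. Every CD24Neg library stood far above every CD24Mid library, at 1531 ± 123 (CD24Mid) and 3037 ± 248 (CD24Neg), a 1.98-fold difference (log2 fold change 0.99 with SE 0.099, limma adjusted p = 1.23e-05), and the log2 fold change with totals was 0.56. Rab10, a close relative known for basolateral and insulin-regulated traffic, had 1588, 1671, 2068 and 1968 in the CD24Mid libraries and 1504, 1947, 2297 and 1822 in the CD24Neg libraries. The fractions overlapped, at 1824 ± 230.4 (CD24Mid) and 1893 ± 328 (CD24Neg), and the difference was 0.045 (95% interval -0.27 to 0.36, limma adjusted p = 0.789). However, Rab10 was called lower with totals (-0.38, adjusted p = 0.0269) and with quantile normalization (-0.37, adjusted p = 0.0265).

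The other members were scarcer. Rab8b lay at 169–262 (CD24Mid) and 224–369 (CD24Neg) and did not pass (log2 fold change 0.43, adjusted p = 0.0625), but passed without CD24Neg library 4 (adjusted p = 0.0266), without CD24Mid library 7 (adjusted p = 0.0379) and without CD24Neg libraries 2 and 4 (adjusted p = 0.0201). It also passed by limma with consecutive title numbers (1 and 2, 3 and 4, 5 and 6, 7 and 8) taken as pairs (adjusted p = 0.00497), a pairing that the labels do not state. Its CD24Neg value was the higher in each of these pairs, at 198, 169, 232 and 262 in the CD24Mid libraries and 271, 224, 295 and 369 in the CD24Neg libraries. Rab13, known from tight junctions, lay at 49.3–66.1 (CD24Mid) and 34.4–75.0 (CD24Neg) (log2 fold change -0.31, adjusted p = 0.313). Rab12 lay at 43.7–99.3 (CD24Mid) and 31.7–92.4 (CD24Neg) (log2 fold change -0.60, adjusted p = 0.181) and passed as lower without CD24Neg library 6 (adjusted p = 0.048). These intervals are wide, at -1.43 to 0.24 for Rab12.

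**Figure D3:**
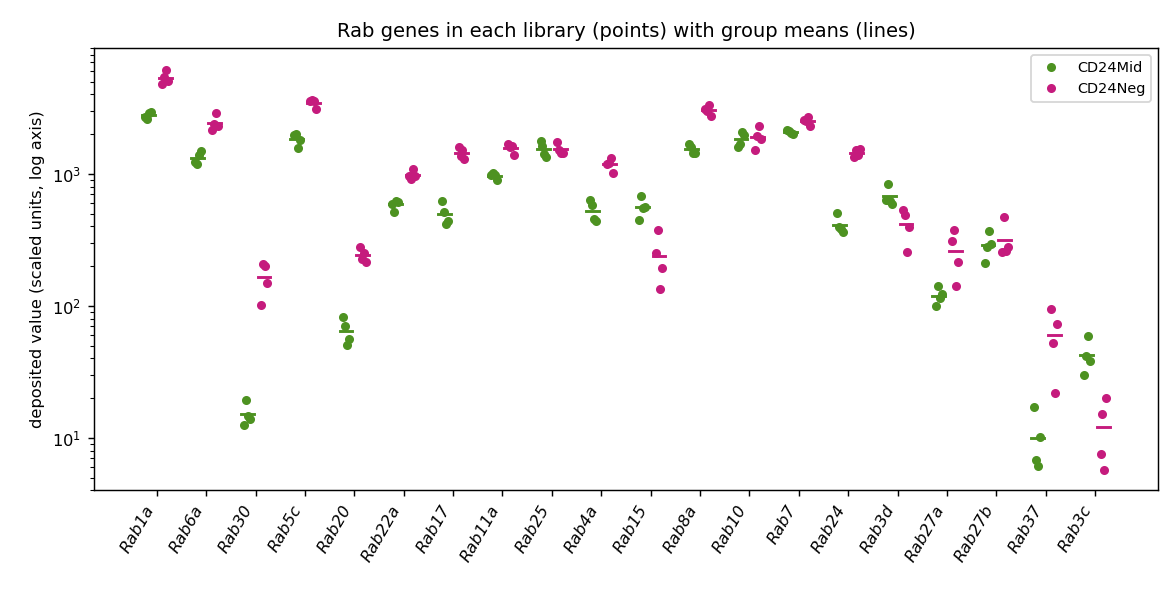
Deposited values (scaled units, log axis) of selected Rab genes in each of the 8 libraries, as points with lines at the means of the 4 libraries of a fraction. Rab1a, Rab5c, Rab8a, Rab11a and Rab17 lie higher in every CD24Neg library, Rab25 and Rab10 overlap, and Rab15, Rab3d and Rab3c lie lower in every CD24Neg library.

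Late endosome and lysosome Rabs had 6 members, of which 3 rose, 0 fell and 3 did not pass, with a median of 0.17. Rab24, an atypical Rab linked to autophagy, gave the lowest adjusted p of all 46 members. It had values of 500.5, 398, 379 and 362 in the CD24Mid libraries and 1339, 1504, 1386 and 1538 in the CD24Neg libraries. The 4 CD24Neg libraries were close together and far above the CD24Mid libraries, at 410.1 ± 62.0 (CD24Mid) and 1442 ± 94.5 (CD24Neg), a 3.54-fold difference (log2 fold change 1.82 with SE 0.12, limma adjusted p = 7.52e-07, and 1.39 with totals). Rab7, the main Rab of fusion between late endosomes and lysosomes, had 2145, 2106, 2022 and 2018 in the CD24Mid libraries and 2534, 2519, 2694 and 2316 in the CD24Neg libraries. These did not overlap, at 2072 ± 63.0 (CD24Mid) and 2516 ± 155 (CD24Neg), yet the rise was small, 1.21-fold by the median ratio (log2 fold change 0.28 with SE 0.086, limma adjusted p = 0.015), and the difference was -0.15 with totals. Without CD24Neg libraries 2 and 4, Rab7 did not pass (adjusted p = 0.0702).

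Rab9, which returns mannose 6-phosphate receptors from late endosomes to the Golgi, had values of 397, 336, 356 and 299 in the CD24Mid libraries and 483, 478, 570.4 and 443 in the CD24Neg libraries and rose 1.42-fold (log2 fold change 0.51, adjusted p = 0.00383, and 0.081 with totals). It stood higher in all 4 CD24Neg libraries. Rab28, Rab29 and Rab32, the latter pair known from lysosomes and related organelles, had overlapping fractions and differences of -0.11, -0.10 and 0.054, with adjusted p of 0.429, 0.569 and 0.811.

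The Rabs of regulated secretion changed in both directions. Of 6 members, 3 rose, 2 fell and 1 did not pass, with a median of 0.36. Rab27a, which docks granules and secretory vesicles, had values of 98.9, 142, 114 and 124 in the CD24Mid libraries and 312, 374, 142 and 213 in the CD24Neg libraries. All CD24Neg libraries were above all CD24Mid libraries, though library 6 only just, at 119.5 ± 18.01 (CD24Mid) and 261 ± 103 (CD24Neg), a 2.06-fold rise (log2 fold change 1.04 with SE 0.28, limma adjusted p = 0.007, and 0.61 with adjusted p = 0.0832 with totals). The summed goblet markers of the CD24Neg libraries, 384020.1, 504558, 182069 and 214344, were in the same order over these 4 libraries, with 5 of 6 goblet markers called higher in these lectin-depleted fractions. In the CD24Mid libraries the goblet sums were 74600.4, 66850, 59440 and 47556, an order that Rab27a did not follow. The part of goblet markers in the result was not tested. Leaving out libraries 2 and 4, which were highest for goblet markers, gave a log2 fold change of 0.58 (adjusted p = 0.0508). Its paralog Rab27b had 212, 277, 369 and 296 in the CD24Mid libraries and 255, 475, 261 and 279 in the CD24Neg libraries. Library 4 of CD24Neg stood apart from the other 3, and the difference did not pass (log2 fold change 0.11, adjusted p = 0.676, 95% interval -0.39 to 0.62).

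Rab3d, a Rab of exocrine granules, had values of 638, 841, 625 and 594 in the CD24Mid libraries and 535, 486, 255 and 398 in the CD24Neg libraries. No CD24Neg library reached the lowest CD24Mid library, at 675 ± 112 (CD24Mid) and 419 ± 123 (CD24Neg), a 1.66-fold fall (log2 fold change -0.73 with SE 0.22, limma adjusted p = 0.0133). Testing all genes unfiltered ended this call (adjusted p = 0.0557), as did testing for more than a 1.5-fold change (adjusted p = 0.508). Rab3c, known from neurons and endocrine cells, had 30.1, 41.6, 58.7 and 38.0 in the CD24Mid libraries and 7.48, 15.2, 5.73 and 19.9 in the CD24Neg libraries, a 3.69-fold fall (log2 fold change -1.88, adjusted p = 0.00258). Its CD24Neg values rest on an estimated 4.18 to 12.5 reads per library. Enteroendocrine markers fell too, with 6 of 8 called lower and 0 higher and sums of 3608–8012 (CD24Mid) and 1149.7–1548 (CD24Neg), and their part in both results was not tested. Rab3a, the Rab3 of neuronal vesicles, was scarce, at 49.4–80.1 (CD24Mid) and 86.8–110.0 (CD24Neg), and rose 1.53-fold (log2 fold change 0.62, adjusted p = 0.0167), with 0.19 under totals and adjusted p = 0.0526 without CD24Mid library 7.

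Rab37, known from secretory granules and immune cells, had values of 17.1, 6.84, 6.07 and 10.1 in the CD24Mid libraries and 95.2, 52.3, 21.8 and 73.1 in the CD24Neg libraries. CD24Neg libraries 2 and 8 were the highest and library 6 lay only just above the highest CD24Mid library, with a 5.51-fold rise (log2 fold change 2.46 with SE 0.49, limma adjusted p = 0.0013). The CD24Neg T cell marker sums were 7082, 424, 1217 and 5464, also highest in libraries 2 and 8, with 5 of 6 T cell markers called higher, and without those libraries the log2 fold change of Rab37 was 1.84 (adjusted p = 0.0148). The part of T cells in this result was not tested. Outside these routes, Rab40c, which carries a SOCS box and joins a ubiquitin ligase, had 359, 442, 322 and 328 in the CD24Mid libraries and 658, 714, 546 and 583 in the CD24Neg libraries and rose 1.73-fold (log2 fold change 0.79, adjusted p = 0.000419). Rab23, a brake on Hedgehog signalling, had 56.6, 75.4, 61.2 and 42.3 in the CD24Mid libraries and 34.2, 30.1, 43.7 and 27.8 in the CD24Neg libraries and fell 1.71-fold (log2 fold change -0.78, adjusted p = 0.0176). Its fractions overlapped in CD24Neg library 6 and CD24Mid library 7, and its CD24Neg values rest on an estimated 17.5 to 40.8 reads. The call of Rab23 was lost without CD24Mid library 3 (limma adjusted p = 0.0575). It was also lost without CD24Neg libraries 2 and 8 (adjusted p = 0.0876) and without CD24Neg libraries 2 and 4 (adjusted p = 0.0837).

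Levels of different Rab genes can be set side by side per length, here the deposited value per kb of the longest protein-coding transcript of each gene. On this scale Rab25 was first in CD24Mid at 1423, followed by Rab1a at 984, Rab7 at 959.9 and Rab5c at 933. The last 3 lie within their spread over libraries of each other. In CD24Neg, Rab1a came first at 1885, then Rab5c at 1759, Rab25 at 1419 and Rab1b at 1277. Rab17 moved from rank 16 in CD24Mid (272) to rank 9 in CD24Neg (788). Rab15 moved the other way, from rank 23 (178) to rank 32 (75.3). The authors' gene-level values may rest on other transcripts, so these orders are approximate and were not tested.

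The balance between 2 related Rabs within a library needs neither a scaling nor a gene length, although reads of close paralogs may be hard to assign. The log2 ratio was taken for 13 pairs and compared by an exact two-sided permutation test over the 8 libraries, in which the smallest possible p is 0.0286. In 6 pairs the fractions did not overlap and p was 0.0286. This became 0.0619 after Benjamini-Hochberg adjustment over the 13 pairs, so none of the 13 passed. With 0.0286 as the smallest possible p, no pair could pass this adjustment on its own, however far its ratio moved. The ratio of Rab8a to Rab10 was -0.25 ± 0.30 in CD24Mid and 0.69 ± 0.24 in CD24Neg, a 1.92-fold higher ratio in CD24Neg. The ratio of Rab11a to Rab25 was -0.66 ± 0.15 in CD24Mid and 0.041 ± 0.11 in CD24Neg, a 1.63-fold higher ratio in CD24Neg. In both of these pairs, all 4 CD24Neg libraries had a higher ratio than any CD24Mid library.

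The other 4 pairs without overlap were Rab3a to Rab3d (difference of the log2 ratio 1.34), Rab27a to Rab27b (0.93), Rab11a to Rab11b (0.30) and Rab7 to Rab9 (-0.23). The last was lower in every CD24Neg library and the others higher. Rab6a to Rab6b differed by 0.97 (exact permutation p = 0.0571), Rab8a to Rab8b by 0.56 (p = 0.0857) and Rab5a to Rab5c by -0.33 (p = 0.171, exact permutation). The smallest differences were those of Rab1a to Rab1b (0.15) and Rab2a to Rab2b (0.042), with Rab4a to Rab4b at 0.18 and Rab5a to Rab5b at 0.22. Within the same consecutive title numbers, the ratio of Rab5a to Rab5c was lower in CD24Neg in 4 of 4 pairs (by -0.22 to -0.40), and those of Rab8a to Rab8b, Rab6a to Rab6b, Rab4a to Rab4b and Rab1a to Rab1b were higher in 4 of 4. An exact two-sided sign-flip test over 4 pairs cannot give a p below 0.125, so none of the 13 ratios can pass in this way.

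**Figure D4:**
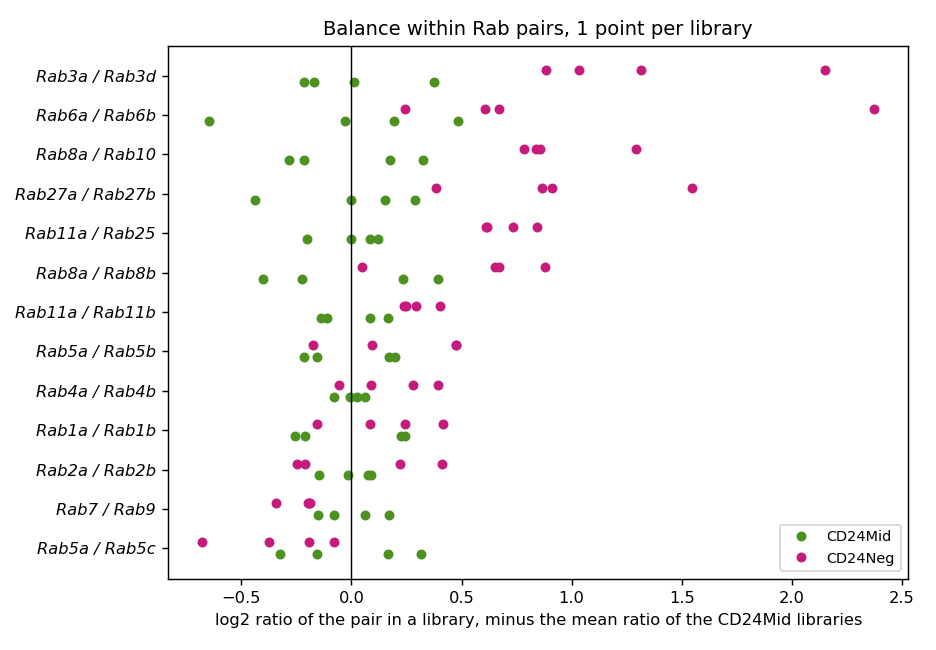
Log2 ratio of the 2 genes of each of 13 Rab pairs in every library, minus the mean ratio of the 4 CD24Mid libraries. All CD24Neg points lie to the right of all CD24Mid points for Rab3a/Rab3d, Rab8a/Rab10, Rab27a/Rab27b, Rab11a/Rab25 and Rab11a/Rab11b, to the left for Rab7/Rab9, and the other pairs overlap.

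The genes of Rab partners were taken from lists of regulators and effectors by role, with 146 of 154 tested. Of these 71 rose (48.6%), 22 fell (15.1%) and 53 did not pass, with a median of 0.33, beside 34.0% and 34.3% of all genes. With totals 37 were higher and 47 lower, where 22.0% and 50.3% of all genes were called so. The effectors of recycling and apical delivery had the highest median of the 9 lists: 14 of 19 rose (73.7%), 5 fell (26.3%) and 0 did not pass (median 1.23). Rab11fip3, a Rab11 effector, was at 281 ± 11.4 (CD24Mid) and 1979 ± 313 (CD24Neg), 6.98-fold higher (limma adjusted p = 1.81e-07). Optn, which encodes the Rab8 effector optineurin, was at 513 ± 65.4 (CD24Mid) and 3624 ± 519 (CD24Neg), 7.04-fold higher (adjusted p = 2.44e-07). Both Rab11a and Rab8a, the Rabs they bind, also rose.

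Myo5b, the motor bound by Rab11a and Rab8a, had values of 2371, 2027, 2177 and 2492 in the CD24Mid libraries and 6059, 6749.6, 9401 and 6698 in the CD24Neg libraries. Every CD24Neg library was far above every CD24Mid library, and the rise was 3.15-fold (log2 fold change 1.66 with SE 0.14, limma adjusted p = 4.70e-06, and 1.23 with totals). Stx3, the apical target SNARE, was at 524 ± 16.02 (CD24Mid) and 1416 ± 202 (CD24Neg), 2.68-fold higher (log2 fold change 1.42, adjusted p = 2.44e-06). Stxbp2, the Munc18 protein that binds it, was at 1303 ± 232 (CD24Mid) and 3107 ± 228 (CD24Neg), 2.41-fold higher (log2 fold change 1.27, adjusted p = 1.50e-05). All 3 genes of this apical machinery rose together with Rab8a and Rab11a. In the same list Rabepk, a Rab9 effector, fell 1.92-fold (log2 fold change -0.94, adjusted p = 0.000239), and Ocrl, an inositol phosphatase recruited by Rabs, fell 1.61-fold (log2 fold change -0.69, adjusted p = 0.00187).

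Among the subunits of the exocyst, the complex that tethers Rab11 and Rab8 vesicles at the plasma membrane, 2 of 9 rose, 1 fell and 6 did not pass (median 0.15). These are 22.2% higher and 11.1% lower, against 34.0% and 34.3% of all genes. Exoc7 rose 1.37-fold and Exoc5 1.36-fold (adjusted p = 0.0104 and 0.0496), with differences near 0 under totals (0.026 and 0.019). Both calls were also lost with quantile normalization (adjusted p = 0.0781 and 0.122), and the call of Exoc5 was lost when CD24Mid library 1 or 3 or CD24Neg library 4, 6 or 8 was left out (adjusted p from 0.0911 to 0.136). Exoc4 fell 1.93-fold (adjusted p = 4.77e-05).

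Of the genes for GDP dissociation inhibitors and prenylation, 4 of 7 rose (57.1%), 0 fell and 3 did not pass (median 0.45). Gdi2 was at 4498 ± 126 (CD24Mid) and 6189 ± 820.2 (CD24Neg), 1.37-fold higher by the median ratio (adjusted p = 0.00494), with 0.024 under totals and a difference of -0.048 with quantile normalization. Rabggta, a subunit of the enzyme that prenylates Rabs, rose 1.61-fold (adjusted p = 0.0013). With library totals that leave out the 20 most abundant genes, its log2 difference was 0.26 (adjusted p = 0.135 by limma), which did not pass the test.

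Of the exchange factors, 15 of 32 rose (46.9%), 5 fell (15.6%) and 12 did not pass (median 0.25). Rab3ip, which encodes the Rab8 activator Rabin8, was at 693 ± 36.4 (CD24Mid) and 507 ± 42.0 (CD24Neg), 1.37-fold lower (log2 fold change -0.45, adjusted p = 0.00168), opposite to Rab8a. Dennd3, the exchange factor of Rab12, rose 5.61-fold (adjusted p = 3.31e-07), and Mon1a, part of the Rab7 exchange factor, 4.699-fold (adjusted p = 4.19e-07). Dennd1a, which activates Rab35, fell 1.63-fold (adjusted p = 0.000617), while Rab35 rose by the median ratio. Dennd2c, which activates Rab9, was at 22.5 ± 3.25 in CD24Mid and 0, 1.47, 1.04 and 4.31 in the CD24Neg libraries, at most a few reads, and is called lower (adjusted p = 0.000491) without a fold.

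Of the GTPase-activating proteins, 14 of 34 rose, 6 fell and 14 did not pass (median 0.28), so 41.2% rose against 34.0% of all genes. The share that fell was 17.6%, against 34.3% of all genes. Tbc1d24 and Tbc1d22a, both proteins with a TBC domain, rose 3.93-fold and 2.38-fold (adjusted p = 1.58e-06 and 1.04e-05). Tbc1d4, which inactivates Rab10 and Rab8a in insulin-regulated traffic, fell 4.85-fold, and Tbc1d9 fell 2.95-fold (adjusted p = 2.88e-06 and 5.83e-06).

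Of the early endosome effectors, 3 of 11 rose, 0 fell and 8 did not pass (median 0.20), so 27.3% rose against 34.0% of all genes. Appl2, a Rab5 effector of signalling endosomes, rose 3.21-fold and Rabep2, a binding partner of Rab5 and Rab4, 3.14-fold (adjusted p = 4.13e-07 and 2.54e-06). Of the late endosome effectors and tethers, 8 of 12 rose (66.7%), 1 fell (8.33%) and 3 did not pass (median 0.69). Rilp, which links Rab7 to dynein, rose 5.404-fold and Vps18, a core subunit of the lysosomal tethers, 1.90-fold (adjusted p = 2.07e-06 and 2.63e-05), while Wdr91, a Rab7 effector of endosome maturation, fell 4.202-fold (adjusted p = 0.000115).

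Of the tethers and adaptors of the endoplasmic reticulum and Golgi, 7 of 13 rose (53.8%), 1 fell (7.69%) and 5 did not pass (median 0.34). Golga2, a Golgi matrix protein that binds Rab1, rose 1.67-fold (adjusted p = 3.64e-05) and Trappc10, a subunit of the TRAPP complex, 1.53-fold (adjusted p = 0.000208). Trappc10 was not called under totals, at 0.19 on the log2 scale (adjusted p = 0.0968), nor under quantile normalization (adjusted p = 0.0858). Bicd1, an adaptor between Rab6 and dynein, fell 2.63-fold (adjusted p = 0.000614).

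Of the effectors of regulated secretion, 4 of 9 rose, 3 fell and 2 did not pass (median 0.50). These are 44.4% higher and 33.3% lower, beside 34.0% and 34.3% of all genes. Sytl3, a Rab27 effector, had values of 18.2, 6.07, 3.12 and 7.87 in the CD24Mid libraries and 225, 167, 204 and 194 in the CD24Neg libraries. It was scarce in every CD24Mid library and moderate in every CD24Neg library, 25.2-fold higher (log2 fold change 4.65 with SE 0.43, limma adjusted p = 6.96e-06). Sytl2, another Rab27 effector, rose 2.91-fold (adjusted p = 2.23e-05). Rph3al and Sytl4, effectors of Rab3 and Rab27 known from endocrine cells, fell 2.77-fold and 2.11-fold (adjusted p = 3.76e-05 and 0.00469), in the direction of Rab3c and Rab3d and of the enteroendocrine markers given above, whose part was not tested. Of the partners named, Golga2, Trappc10, Rabggta, Gdi2, Dennd1a, Rab3ip, Exoc7, Exoc5, Ocrl and Sytl4 did not pass the limma test against a fold change of 1.5.

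**Figure D5:**
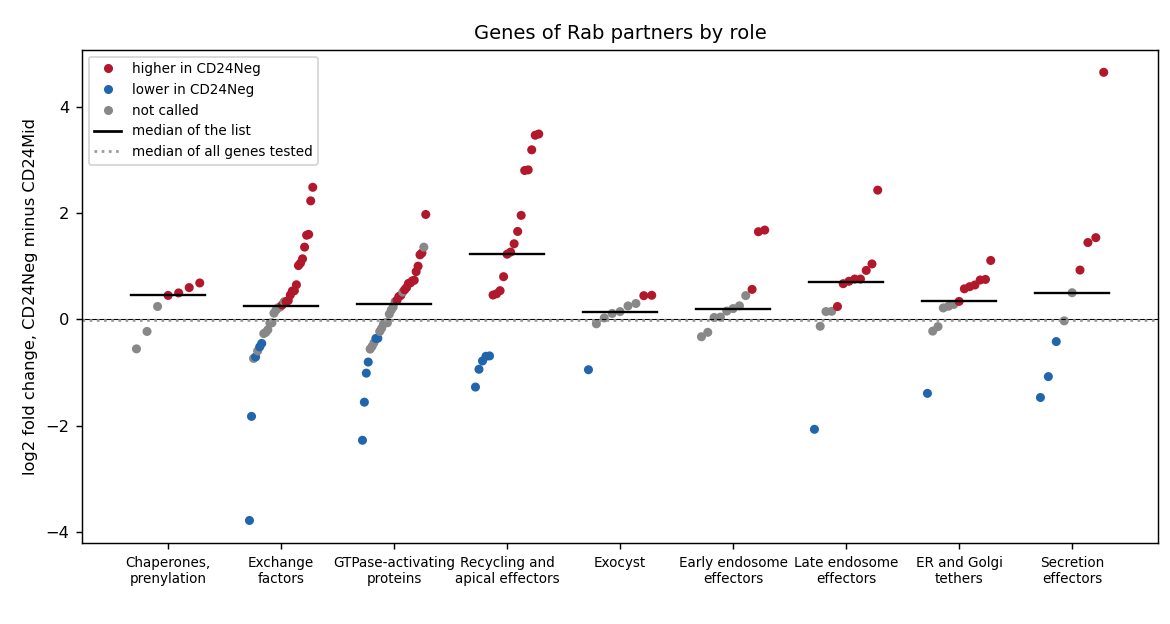
Log2 fold change, CD24Neg minus CD24Mid, of 146 genes of Rab partners, 1 point per gene in 9 lists by role, with a line at the median of each list and colour for the call. The recycling and apical effectors have the highest median, 1.23, and the exocyst and early endosome lists have medians of 0.15 and 0.20. Scaling to totals moves all points down, with 37 genes then called higher, beside 22.0% of all genes.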

How the data were processed

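RNA sequencing values of 8 libraries were used, 4 of CD24Mid and 4 of CD24Neg, grouped by sample titles. Libraries were made from total RNA with the TruSeq kit, per the labels' protocols. The deposited values are a signal that the authors had scaled, that is, gene-level expression estimates, 1 per Ensembl gene, per the file headers. Bowtie 0.12.8 and NCBIM37 are the aligner and build in the submitters' processing notes. Other tools and the annotation release: not given in the sources used here. Whole reads could not be recovered, so no count model was used, and depth was estimated from the spacing of the lowest values.

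From the deposited signal, genes at 10 or more in at least 4 libraries were centred by median ratio, and limma 3.58.1 under R 4.3.3 was fitted to log2(value + 0.5) (lmFit, eBayes with trend and robust variance, 6 residual degrees of freedom, no covariates). Adjusted p-values are Benjamini-Hochberg values over all 12906 genes, threshold 0.05. The pseudocount pulls fold changes of low genes toward 0. Ratios of paralogs were tested by exact permutation in scipy 1.17.1. The fit was tested on simulated data. Symbols came from GENCODE M21, which matched 21223 of 23318 identifiers. Near-identical paralogs may share reads, and how the authors' estimates split these is not known here.

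Values by library are given, per route, for the most abundant member, up to 4 called members by adjusted p, 1 member in a direction these miss, and 9 members fixed by name (Rab3d, Rab5a, Rab7, Rab8a, Rab10, Rab11a, Rab25, Rab27a and Rab27b). Partners named are up to 2 per list and direction by adjusted p, and Myo5b, Stx3, Stxbp2, Gdi2 and Rab3ip; 1 gene that the rule names is not reported here. Other members are described by their range. The members, lists, pairs and tests were chosen with earlier results of these data known. The alternatives were pseudocounts of 0.1 and 1, no filter, a filter of 10 in every library of 1 group, quantile normalization, no centring, scaling to totals, limma without trend, a test against a fold change of 1.5, leaving out each library, leaving out CD24Neg libraries 2 and 8, and, added after seeing the data, leaving out CD24Neg libraries 2 and 4 and a fit with consecutive title numbers as pairs.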

Additional observations from a re-analysis of the deposited data

Results flagged for a closer look

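Single libraries stood apart from the other 3 of their fraction in 4 of 92 sets of values (46 Rab genes in 2 fractions), where the gap to the nearest library exceeded 0.829 of the range. Chance gives about 1 in 20, or 4.6 sets. Rab5c was 3088 in CD24Neg library 8 and 3567 to 3619 in the others. Rab5b was 828 in CD24Mid library 3 and 683 to 699.5 in the others. Rab14 was 2165 in CD24Neg library 6 and 1828 to 1841 in the others. Rab27b was 475 in CD24Neg library 4 and 255 to 279 in the others.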

How the results depend on the processing

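Scaling to totals moved the counts from 30 to 17 Rab genes higher and from 4 to 11 lower, and from 71 to 37 partner genes higher and from 22 to 47 lower. The share of all genes went from 34.0% to 22.0% higher and from 34.3% to 50.3% lower. A test against a fold change of 1.5 left 12 Rab genes higher and 2 lower, and 27 partner genes higher and 8 lower. Of all 12906 genes, 2360 were higher and 2430 lower by this test. Leaving out each library in turn gave 26 to 30 Rab genes higher and 3 to 5 lower, and 63 to 77 partner genes higher and 17 to 23 lower. Of the 12538 to 12648 genes tested in these fits, 3970 to 4266 were higher and 3882 to 4306 lower. Leaving out CD24Neg libraries 2 and 4, chosen after seeing the data, gave 24 Rab genes higher and 3 lower, beside 3898 and 4026 of 12478 genes tested. The calls of Rab2a, Rab5b, Rab7, Rab11b, Rab21, Rab23, Rab27a and Rab35 were then lost (limma adjusted p from 0.0508 to 0.14). Leaving out CD24Neg libraries 2 and 8 ended the calls of Rab3a (adjusted p = 0.0572) and Rab23 (adjusted p = 0.0876). The paralog ratios cannot pass with 3 libraries against 4, where the smallest exact permutation p is 0.0571. The fractions share no replicate number, and no label says which libraries belong together. Libraries with consecutive title numbers deviated from their fraction means alike over 12906 genes (correlations of 0.28 to 0.33, against -0.26 to 0.033 for other combinations, each library correlating best with its neighbour), a hint from the data and not from the design. With these pairs as a replicate block, added after seeing the data, 31 Rab genes were higher and 4 lower, and 79 and 24 partner genes. Of all 12906 genes, 4733 were higher and 4771 lower in that fit. Rab8b was added (adjusted p = 0.00497), and no call of a Rab gene was lost.

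The sign turned without CD24Neg libraries 2 and 4 for Rab6b (0.36), Rab28 (0.062), Rab25 (-0.064) and Rab27b (-0.045). It also turned without CD24Neg libraries 2 and 8 for Rab13 (0.047) and Rab25 (-0.024). The sign turned with quantile normalization for Rab2a (-0.12), Rab6b (0.27), Rab10 (-0.37), Rab7 (-0.19), Rab29 (0.17), Rab14 (-0.21), Rab25 (-0.37) and Gdi2 (-0.048). It also turned with totals for Rab2a (-0.13), Rab2b (-0.17), Rab10 (-0.38), Rab8b (-0.00039), Rab5b (-0.057), Rab21 (-0.19), Rab7 (-0.15), Rab32 (-0.37), Rab14 (-0.23), Rab11b (-0.022), Rab25 (-0.43), Rab35 (-0.056) and Rab27b (-0.31). Leaving out each library in turn, differences of both signs were found, from -0.30 to 0.38 for Rab6b, -0.050 to 0.17 for Rab10, -0.051 to 0.19 for Rab32, -0.068 to 0.067 for Rab25, -0.094 to 0.23 for Rab27b and -0.080 to 0.14 for Rab2a/Rab2b as a ratio. In the main processing most of these genes were not called in either direction. The exceptions are Rab2a, Rab5b, Rab7, Rab11b, Rab21, Rab35 and Gdi2, whose calls as higher rest on the median-ratio scaling. With totals Rab10, Rab13, Rab14, Rab25, Rab28 and Rab29 were called lower. With quantile normalization Rab10 and Rab25 were called lower and Rab2b and Rab8b higher. Few reads limit Rab6b, Rab3c, Rab23 and Rab31 in CD24Neg and Rab30, Rab31, Rab37 and Sytl3 in CD24Mid. The cause was not tested.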
